A study of Mus musculus with 4 samples.

Results

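Hypoxia signalling and glycolysis were described here through 37 genes, of 21883 protein-coding genes in the RefSeq gene table, in open chromatin maps of mouse dermal fibroblasts. The genes were chosen by name, and every peak whose midpoint lay inside a gene's span or within 50000 bp of it was taken. This gave 1247 of 433013 peaks in the control library, 1568 of 585165 in the knockout, 1046 of 340240 in vehicle and 1002 of 347438 in rotenone, with no peak shared by 2 of the genes. A peak within 1000 bp of either end of the gene's span was called a gene end peak and every other one distal.

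Open chromatin was mapped with ATAC-seq: nuclei were exposed to the Tn5 transposase, which inserts adapters where DNA is accessible. All 4 libraries came from dermal fibroblasts of the C57BL/6 strain labelled 100 days, without a statement of what the days count. The control was Sod2+/+ with no treatment named, the conditional knockout was Sod2-/-, and both treated libraries were Sod2+/+, 1 given vehicle and 1 given rotenone at a labelled 250 µM. The knockout and rotenone libraries are called perturbed here, and control and vehicle the reference libraries. Sod2 encodes the manganese superoxide dismutase of mitochondria, and rotenone blocks electron flow through respiratory complex I. The driver of the knockout, the vehicle, the duration of treatment and whether cells of several animals were pooled are not given in the sources used.

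Cells sense oxygen through hydroxylases that mark the alpha subunits of the hypoxia-inducible factors for destruction by the Vhl ubiquitin ligase. When oxygen falls, the alpha subunits accumulate, pair with Arnt and bind short elements with an RCGTG core. Their targets include glucose transporters, most glycolytic enzymes, the kinases that keep pyruvate out of mitochondria, and enzymes that modify collagen. Cultured fibroblasts rely heavily on glycolysis, and their collagen prolyl hydroxylases are needed for stable collagen.

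Each group had 1 library, so differences have no replicate check and carry no p-value. Intervals show counting error alone. Read depth is unknown. Peaks were ranked within each list by the authors' −log10 p, and the 30000 highest were called strong. The fold enrichment of a peak over its local background is the authors' value throughout. Values without a library name are in the order control, knockout, vehicle and rotenone. Over whole lists, strong peaks had median folds of 6.78, 5.49, 7.13 and 5.99 and median widths of 376, 293, 349 and 277 bp. The lower folds and narrower peaks of the knockout and rotenone libraries moved with both comparisons, and their part in the results was not tested. In bulk material, fewer cells with an open site and a site less open in every cell cannot be told apart.

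The fibroblast markers chosen here did not set the cell type apart at gene ends. Strong gene end peaks lay at 2 of 8 fibroblast markers, Col1a2 and Fn1, in each library, against 1 of 4 keratinocyte markers (Krt14) and 1 of 4 endothelial markers (Tek) in each. The myeloid list had 1 of 4, Spi1 in rotenone, and the muscle list 1 of 3, Ckm in all but the knockout. The lymphocyte and adipocyte lists had 0 in each library. Of the fibroblast markers, 7 of 8 had a gene end peak of some strength in each library, the one without being Dcn in control and Lum in the other libraries. Among the keratinocyte markers it was 3 of 4 in each library, all but Trp63. Over all genes the shares were 74.6%, 76.5%, 72.3% and 70.9%. Strong peaks within 50000 bp came to between 2.0 and 2.5 per fibroblast marker, between 1.75 and 2.25 per keratinocyte marker, between 2.0 and 2.5 per myeloid marker, between 2.0 and 3.0 per lymphocyte marker and between 1.0 and 1.75 per endothelial marker, so these counts did not set fibroblasts apart either.

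Many promoters of these genes hold the core letters of the element that the hypoxia-inducible factors bind, so a few are printed before the values. RefSeq promoter windows, from 250 bases before to 50 after a start site (GRCm38.p6), were available for 34 of the 37 genes, in 48 windows. The motifs ACGTG and GCGTG, searched on both strands, occurred in 39 of the 48 windows (81.2%), against 49.3% of the 21262 windows of all protein-coding genes. Taking for each gene the window with the best mean rank, 29 of 34 members (85.3%) held a match, and among genes whose window lay under a strong control peak it was 20 of 24 (83.3%) against 67.8% of 6231. Both motifs hold a CG, and the median number of CG pairs per window was 21 in the members and 14 in all genes, but 21 and 22 among windows under a strong control peak. ACGTG alone was in 13 of those 24 member windows (54.2%) against 27.4%, and GCGTG in 15 (62.5%) against 55.9%. The AP-1 motif TGANTCA was in 0 of the 24 and in 4.59% of the 6231. A match is a run of letters and no measured binding site.

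Among members with a gene end peak over the window in every library, the 4 with the most matches are shown here as the 250 bases before the start site, 5′ to 3′ on the gene's strand, with Ldha added after its values were seen because its window held the most matches of all members. Capitals mark ACGTG or GCGTG on the strand shown, or CACGT or CACGC where the match is on the other strand. CACGTG contains a match on each strand and counts as 2.
Bnip3 (chr7:138909507-138909756, minus strand), 5 matches: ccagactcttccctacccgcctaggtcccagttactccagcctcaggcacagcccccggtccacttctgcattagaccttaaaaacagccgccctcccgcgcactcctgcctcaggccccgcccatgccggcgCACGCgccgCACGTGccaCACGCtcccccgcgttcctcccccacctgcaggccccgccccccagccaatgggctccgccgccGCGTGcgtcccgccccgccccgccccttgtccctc
Pfkp (chr13:6648772-6649021, minus strand), 3 of 4 matches shown: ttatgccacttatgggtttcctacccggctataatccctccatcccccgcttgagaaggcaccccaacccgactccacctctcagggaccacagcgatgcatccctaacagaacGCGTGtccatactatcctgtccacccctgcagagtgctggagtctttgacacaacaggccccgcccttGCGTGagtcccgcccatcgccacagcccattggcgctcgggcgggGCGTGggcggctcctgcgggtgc
Ankrd37 (chr8:45999851-46000100, minus strand), 4 matches: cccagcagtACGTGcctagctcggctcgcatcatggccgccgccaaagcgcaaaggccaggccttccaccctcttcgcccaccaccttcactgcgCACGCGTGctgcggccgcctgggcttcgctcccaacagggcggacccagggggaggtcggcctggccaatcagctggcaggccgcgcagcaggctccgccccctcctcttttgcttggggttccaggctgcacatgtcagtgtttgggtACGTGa
P4ha2 (chr11:54100674-54100923, plus strand), 3 of 4 matches shown: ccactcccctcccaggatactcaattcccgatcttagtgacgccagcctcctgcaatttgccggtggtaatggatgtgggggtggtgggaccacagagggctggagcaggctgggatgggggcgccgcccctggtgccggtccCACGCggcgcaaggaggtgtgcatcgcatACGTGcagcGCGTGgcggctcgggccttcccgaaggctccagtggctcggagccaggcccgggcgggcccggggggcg
Ldha (chr7:46845554-46845803, plus strand), 5 of 7 matches shown: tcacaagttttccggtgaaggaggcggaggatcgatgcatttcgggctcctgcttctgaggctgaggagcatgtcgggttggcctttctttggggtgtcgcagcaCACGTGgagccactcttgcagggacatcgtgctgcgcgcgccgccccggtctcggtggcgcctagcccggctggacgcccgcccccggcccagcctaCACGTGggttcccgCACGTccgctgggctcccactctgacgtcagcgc

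These windows differed widely in openness. Ankrd37, which encodes an ankyrin repeat protein and is a widely used hypoxia target, lay under a strong peak in every library, with folds of 6.84 in control, 6.85 in the Sod2 knockout, 7.33 with vehicle and 9.67 with rotenone. At P4ha2, which encodes an alpha subunit of collagen prolyl hydroxylase, the peak over the window was weak everywhere, with folds of 2.51, 2.15, 3.73 and 2.71 in the same order of libraries. Ldha, the gene of the lactate dehydrogenase A subunit, had a window peak outside the 30000 strongest in each list, with folds of 4.85, 3.89, 4.86 and 3.46.

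Gene ends of the members carried strong peaks at a higher share than those of genes in general. Of the 37 members, 24 had one in control (all genes 35.6%), 27 in the knockout (35.8%), 24 with vehicle (35.6%) and 23 with rotenone (36.5%). One of any strength was present at 35, 36, 35 and 34 members, against 74.6%, 76.5%, 72.3% and 70.9% of all genes. The gene table gives the outermost ends of all transcripts, which can lie far from the start in use. By the RefSeq promoter windows, a strong peak lay over 24 of 34 members in control (70.6%, all genes 35.6%), 26 in the knockout (76.5%, all genes 35.5%), 23 in vehicle (67.6%, all genes 35.5%) and 23 in rotenone (67.6%, all genes 36.0%). In 22 of the 34 the window was strong in all 4 libraries, in 7 in none (Adm, Aldoc, Hif3a, Ldha, P4ha2, Slc16a3 and Vegfa) and in 5 in some (Bnip3, Car9, Egln1, Egln3 and Vhl).

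**Figure D1:**
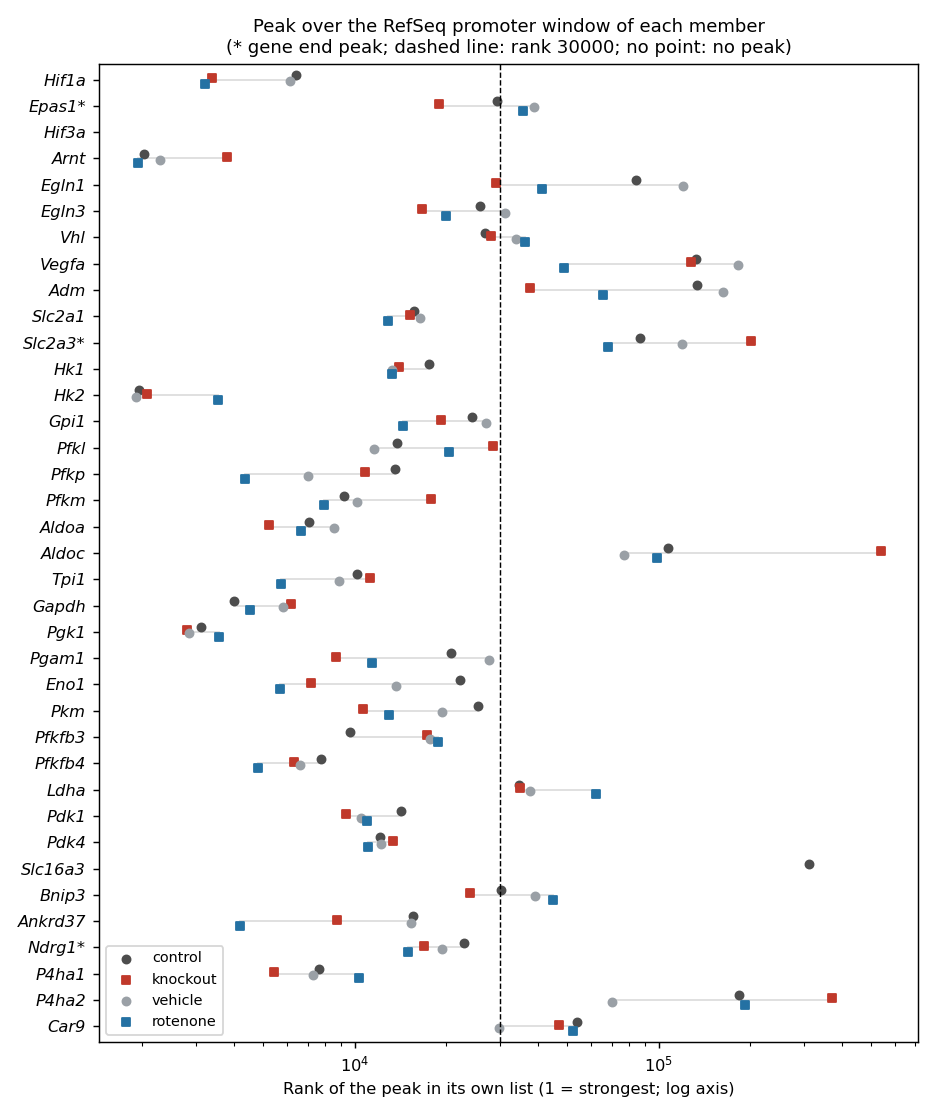
Rank of the best peak over each member's promoter window within its own list (x axis, log scale, 1 is the strongest), by library, with the genes in order of their role. For Epas1, Slc2a3 and Ndrg1, marked with an asterisk, the best gene end peak is shown instead. Members left of the dashed line at 30000 are strong; Arnt, Hk2 and Pgk1 sit farthest left in control, and Hif3a has no point because no peak overlapped its window.

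Among the factor subunits, the promoter of Hif1a and that of its partner Arnt were open in all 4 libraries, while Hif3a had no peak at its start. Hif1a, the gene of the main oxygen-regulated subunit, has its RefSeq start 6543 bp inside the span of the gene table, and the peak there had folds of 8.50, 9.03, 9.53 and 9.60, at ranks 6419, 3382, 6110 and 3216. It stood higher in the knockout list than in control and higher in rotenone than in vehicle. There it was narrower, at 601 and 598 bp against 752 and 740 bp, as strong peaks of those lists were in general. Another strong peak, at the lower coordinate of the gene span, had folds of 7.39, 5.20, 6.66 and 5.22. Its ranks were 15090, 18655, 20971 and 22788, farther from the top in each perturbed library than in its own reference. Arnt, the shared beta subunit, had one of the best ranked promoter peaks of the set, with folds of 14.3, 8.80, 14.6 and 12.1 at ranks 2031, 3805, 2289 and 1930. The knockout value was the lowest of the 4. Arnt had no other strong peak within 50000 bp in any library. Epas1, which encodes the oxygen-regulated subunit prominent in endothelial and stromal cells, had gene end peaks with folds of 5.35, 5.04, 4.83 and 4.14. That peak was strong in control and the knockout (ranks 29376 and 19005) and outside the list in vehicle and rotenone (38919 and 35681). Hif3a, whose products include inhibitors of the pathway, had no peak over its promoter window and none within 1000 bp of either gene end in any list.

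No oxygen sensor had a strong promoter peak in all 4 libraries. Egln1, the gene of the prolyl hydroxylase that sets most of the activity of the alpha subunits, had a promoter peak with folds of 3.22 in control, 4.21 in the Sod2 knockout, 3.07 with vehicle and 4.03 with rotenone, at ranks 84246, 29272, 120494 and 41312. Both perturbed libraries lay above both reference libraries in fold and in rank. It was the one gene end peak of any member called gained in the knockout, by the definition of gained peaks used further on; a peak inside Egln1, 18033 bp from the gene end, was far stronger in every library (folds 10.3, 8.44, 10.0 and 8.85). Egln3, a hydroxylase gene that is itself a hypoxia target, had folds of 5.65, 5.37, 5.52 and 5.53, within a narrow range, although its ranks of 25850, 16592, 31144 and 20045 put vehicle outside the strong list. Vhl, the substrate receptor of the ubiquitin ligase, had folds of 5.43, 4.30, 5.18 and 4.31 and ranks of 26743, 28166, 33869 and 36333. Its 2 folds in the perturbed libraries were below those of the reference libraries.

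Neither secreted factor had a strong peak over its promoter window. Vegfa, which encodes the main growth factor of blood vessels, had 0 strong peaks in or within 50000 bp of the gene in each of the 4 libraries, and was the one member without any. Its promoter peak had folds of 2.68 in control, 2.58 in the knockout, 2.74 with vehicle and 3.81 with rotenone, and its best distal peak in control lay 41650 bp upstream with a fold of 4.34. Adm, the gene of the vasodilator adrenomedullin, had a strong peak at a gene end in every library (folds 6.38, 5.52, 6.11 and 5.54) beside a weak one over the promoter window itself (folds 2.56, 3.62, 2.62 and 3.33, ranks 133536, 37650, 163484 and 65716). The window peak stood higher in the knockout and rotenone lists than in their reference lists.

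The glucose transporter genes held the second and the third best ranked distal peak of the members in control. Slc2a1, the gene of the basal glucose transporter, had promoter folds of 4.94 in control, 4.37 in the knockout, 5.0 with vehicle and 4.95 with rotenone, and held 10, 10, 9 and 10 strong peaks in all. Its best distal peak (chr4:119174003-119174441), 36892 bp downstream, had folds of 18.6, 14.3, 16.9 and 16.4, but it lies over the end of the neighbouring gene Zfp691. Slc2a3, which encodes a high-affinity transporter, had no strong gene end peak in any library, and its best peak lay 8755 bp beyond the upper end of the gene span, was 944 bp wide in control and had folds of 9.66, 8.83, 9.92 and 9.68 at ranks 254, 522, 285 and 437. No promoter sequence was matched for Slc2a3, Epas1 or Ndrg1.

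Of 14 glycolytic enzyme genes, 11 had strong gene ends in control and 12 in each other library, and by promoter window only Aldoc was outside the strong lists. Hk2, the inducible hexokinase gene, had the highest placed promoter peak of the members in control, with folds of 12.3 in control, 11.1 in the Sod2 knockout, 13.1 with vehicle and 9.54 with rotenone, at ranks 1957, 2073, 1905 and 3558. Pgk1, the phosphoglycerate kinase gene on the X chromosome, came next among the glycolytic enzyme genes in control, with folds of 11.1, 10.3, 12.7 and 10.3. Gapdh had folds of 8.46, 6.91, 7.70 and 8.02, with the reservation that many processed copies of this gene exist and the handling of reads with several matches is not given in the sources used. The rank order of these 3 genes was the same in all 4 libraries, with Pgk1 placed above Gapdh and Hk2 above Pgk1 in control, the knockout, vehicle and, by a narrow margin, rotenone. Hk1, the constitutive hexokinase gene, has its start 39499 bp inside the gene span, with folds of 6.26, 5.47, 7.72 and 5.75. Gpi1, the gene of glucose phosphate isomerase, had 4.22, 4.55, 3.99 and 5.13, and Tpi1, the triose phosphate isomerase gene, had 8.30, 6.17, 8.35 and 8.06. Of the aldolase genes, Aldoa had 7.65, 6.49, 7.04 and 6.32 at its start. Aldoc had 2.91, 2.01, 3.53 and 3.10 over the window, beside a strong peak near the other gene end with 5.59, 4.98, 5.51 and 5.48.

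The 3 phosphofructokinase genes differed from each other. Pfkl, the liver type, had promoter folds of 7.32 in control, 4.23 in the knockout, 8.13 with vehicle and 5.17 with rotenone, lower in both perturbed libraries. A second peak at the same gene end had 6.80, 5.70, 6.53 and 6.34 at ranks 15397, 12807, 17722 and 11547, so its fold was also lower in each perturbed library than in its own reference, but its rank was nearer the top. Pfkp, the platelet type, had 5.94, 6.36, 8.38 and 9.70, higher in each perturbed library than in its own reference. Pfkm, the muscle type, had 8.12, 4.93, 8.29 and 7.65, lowest in the knockout. The ends of the Pfkm span had 2 other peaks. The one at the lower coordinate had 5.14, 3.53, 6.14 and 3.65 and was strong in vehicle alone, and the one at the upper coordinate had 5.14, 5.50, 5.56 and 5.60 and was strong in the knockout and rotenone. Among the best ranked distal peaks of the members were 1 inside Pfkp (chr13:6614057-6614543), with folds of 16.4, 15.3, 16.5 and 17.6, and 1 at 48980 bp downstream of Pfkm (chr15:98181145-98181709), nearest to Olfr288, with 14.4, 11.9, 14.3 and 12.0. In the lower part of the pathway Eno1, the enolase gene, had folds of 5.70, 6.98, 7.41 and 8.33 at ranks 22151, 7164, 13635 and 5661, and Pgam1, the phosphoglycerate mutase gene, had 6.13, 6.80, 5.67 and 6.81 at ranks 20805, 8698, 27699 and 11373. Pkm, which encodes the muscle type pyruvate kinase, had folds of 4.88, 5.32, 5.86 and 5.48 at ranks 25412, 10640, 19420 and 12934. Each of these 3 stood higher in the knockout and rotenone lists than in the reference lists, although for Pkm the rotenone fold was below that of vehicle.

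Of the fructose bisphosphate regulators, Pfkfb3 lay among many strong peaks. Pfkfb3, which encodes the enzyme that raises fructose 2,6-bisphosphate and so glycolytic flux, had 11 strong peaks in control, 11 in the knockout, 11 with vehicle and 9 with rotenone, against a mean of 2.88 per gene over all genes in control. Its best (chr2:11429624-11429995), 41621 bp downstream and outside any protein-coding gene, was the highest placed peak near any member in control, with folds of 19.0, 15.8, 19.9 and 16.2 at ranks 153, 285, 144 and 238. The strong promoter peak of Pfkfb3 lay at a start 51981 bp inside the gene span, with folds of 5.83, 4.68, 5.13 and 4.72, while the one at the outer gene end was strong in control and vehicle (5.26 and 6.25) and outside the list in the knockout and rotenone (3.66 and 4.38). Pfkfb4 had a strong promoter peak in all 4 libraries, with folds of 7.65, 7.23, 8.89 and 8.01.

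For the fate of pyruvate, both kinase genes had strong peaks over the promoter window in each library and the lactate genes Ldha and Slc16a3 in none. Pdk1, a pyruvate dehydrogenase kinase gene and hypoxia target, had folds of 6.97 in control, 6.43 in the knockout, 7.98 with vehicle and 6.49 with rotenone, and Pdk4, its paralog induced by fasting and glucocorticoids, had 7.52, 5.84, 8.02 and 6.85. The Ldha window peak had ranks of 34694 in control, 34991 in the knockout, 37820 with vehicle and 62405 with rotenone. In control, the knockout and vehicle it was not far past the strong limit, so its place outside those lists depended on that limit. Its control fold of 4.85 was near those of the strong window peaks of Pkm (4.88) and Slc2a1 (4.94). Ldha also had a strong upstream peak (chr7:46838688-46839333), 3264 bp from the gene span. The upstream peak had folds of 9.80, 9.38, 10.9 and 10.0 at ranks 2058, 1717, 1524 and 1329. Slc16a3, the gene of the lactate exporter, had a peak over its promoter window in control only (fold 2.23), and its gene end peaks had folds of 5.03, 4.96, 6.02 and 4.26, strong in the knockout and vehicle.

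Of the other targets, Ankrd37, Ndrg1 and P4ha1 had strong gene end peaks in every library, P4ha2 in none, and Bnip3 and Car9 in some. Bnip3, a mitophagy receptor gene, had promoter folds of 4.16 in control, 4.48 in the knockout, 3.93 with vehicle and 3.67 with rotenone, on both sides of the strong limit. Car9, which encodes a carbonic anhydrase of the cell surface and is a sensitive hypoxia marker, had a peak at the start with folds of 3.94, 3.32, 5.54 and 3.71, strong in vehicle alone (rank 29745). A second peak, farther upstream and reaching the window in the knockout, had 3.70, 3.49, 4.69 and 4.70 and was strong in rotenone alone (rank 27538). Ndrg1, a stress response gene, had 2 peaks at the gene end of the upper coordinate. The inner one, 855 bp from the end in control, had folds of 4.17, 4.03, 4.74 and 4.14 and was strong in each library. The outer one, 84 bp from the end in the knockout, had 3.84, 4.97, 3.54 and 5.27 and was strong in each library but vehicle. P4ha1, the main collagen prolyl hydroxylase subunit gene, held 2 strong peaks in control and 2 in vehicle but 5 in the knockout and 6 in rotenone. No P4ha1 peak was called gained by the definition used further on. Each strong P4ha1 peak of a perturbed library thus overlapped a peak among the 60000 strongest of its own reference. Over all members the mean number of strong peaks per gene was 4.54, 4.41, 4.51 and 4.30. The P4ha1 promoter peak had folds of 9.48, 8.32, 10.1 and 7.23. A peak 37468 bp upstream had 7.13, 8.36, 6.71 and 7.32 at ranks 15940, 5482, 20467 and 9662. Against its own reference, each perturbed library had a higher fold at the upstream peak and a lower one at the promoter. By rank the promoter stood nearer the top in the knockout (5426 against 7652) and farther from it in rotenone (10315 against 7268).

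Read as a set, member promoters stood nearer the top of the list in the perturbed libraries somewhat more often than promoters in general, and the intervals include the general share. Of 32 members with a window peak in both libraries, 20 stood higher in the knockout than in control (62.5%, 95% Wilson interval 45.3 to 77.1, all genes 47.7%). Where a window had best peaks in several libraries, these overlapped each other except at Car9, which was counted among the 20 through its upstream peak, while its peak at the start had rank 54103 in the knockout and 53856 in control. In rotenone against vehicle it was 19 of 32 (59.4%, 42.3 to 74.5, all genes 52.0%), and in vehicle against control 16 of 32 (50%, all genes 47.7%). In both the knockout and rotenone 14 of the 32 stood higher (43.8%, all genes 34.8%): Adm, Aldoa, Ankrd37, Egln1, Egln3, Eno1, Gpi1, Hif1a, Pfkfb4, Pfkp, Pgam1, Pkm, Slc2a1 and Vegfa. In both, 7 stood lower (21.9%, all genes 33.7%): Aldoc, Hk2, Ldha, P4ha2, Pfkfb3, Pfkl and Vhl. A rank in lists of different length and depth is a place among other peaks and shows no change of the site itself.

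Within each list, gene end peaks of the members had a higher median fold and width than their distal peaks when all peaks were taken, but not a higher median fold when strong peaks were compared. For peaks of any strength the median fold was 2.93 at gene ends (96 peaks) and 2.49 at distal sites (1151) in control, 2.50 (107) and 2.27 (1461) in the knockout, 3.67 (75) and 2.95 (971) in vehicle, and 3.38 (82) and 2.81 (920) in rotenone. Median widths were 141.5 against 64 bp, 125 against 52 bp, 215 against 75 bp and 138.5 against 73 bp, and median ranks 97968 against 182305 in control, 135983 against 254191 in the knockout, 60672 against 135296 in vehicle and 66970.5 against 147398 in rotenone. All 3 measures thus put gene ends first in each library. The share of peaks that were strong was 30.2% (95% Wilson interval 21.9 to 40.0) at gene ends and 12.1% (10.3 to 14.1) at distal sites in control, 29.9% and 8.97% in the knockout, 36.0% and 14.4% in vehicle, and 32.9% and 14.3% in rotenone. Over all protein-coding genes these shares were 23.5% and 8.66%, 21.8% and 6.55%, 27.9% and 10.7%, and 31.4% and 10.6%.

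Among strong peaks alone the order of the folds turned. Strong gene end peaks of the members had a median fold of 6.13 against 6.75 for strong distal ones in control, 5.44 against 5.85 in the knockout, 6.66 against 7.07 in vehicle and 5.60 against 6.00 in rotenone. Their median widths were 434 against 439 bp, 378.5 against 328 bp, 486 against 388.5 bp and 349 against 316.5 bp, so strong gene end peaks were the wider ones except in control. Median ranks were 15641 against 14877, 15557.5 against 13137, 16407 against 14050 and 12885 against 14553, so by rank gene ends stayed first in rotenone. The 95% intervals of the 2 median folds overlapped in each library. Over all genes, strong gene end peaks had the higher fold in each list (7.30 against 6.74, 6.13 against 5.50, 7.73 against 7.10 and 6.70 against 6.00). The member gene ends, 27 to 32 peaks per library, lay below the median of all gene ends, and in the knockout, vehicle and rotenone the 95% interval of the member median included the median of all gene ends. In control it included it too, with an upper bound of 7.32 beside 7.30. Some distal peaks lay at the ends of neighbouring genes: of 139 strong distal peaks in control, 35 lay within 1000 bp of the end of another gene and had a median fold of 6.85, against 6.71 for the other 104. In the other libraries these medians were 7.03 and 5.44 (knockout), 7.73 and 6.78 (vehicle), and 6.67 and 5.89 (rotenone). Without such peaks the distal median in the knockout was 5.44, as at gene ends, so there the order did not turn. The strong distal peaks also held promoter peaks of members whose RefSeq start lies more than 1000 bp inside the gene span. These were at Hif1a, Aldoa, Pfkfb4, Pfkm, Hk1 and Pfkfb3, with control folds of 8.50, 7.65, 7.65, 8.12, 6.26 and 5.83. Distal is thus not the opposite of promoter here, and the medians without these peaks were not computed.

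**Figure D2:**
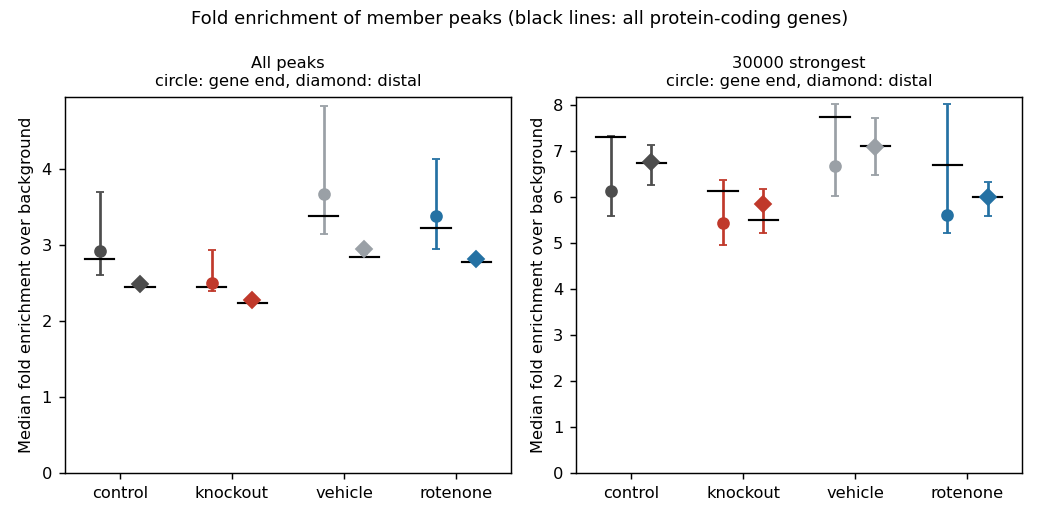
Median fold enrichment over background of gene end peaks (circles) and distal peaks (diamonds) of the members in each library, for all peaks (left) and for the 30000 strongest (right), with 95% intervals of the median and black lines at the medians over all protein-coding genes. Circles lie above diamonds on the left and below them on the right in each library.

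To compare libraries, a strong peak was called gained or lost when it overlapped none of the partner's 60000 strongest peaks. In the Sod2 knockout against the Sod2+/+ control 4 member peaks were gained and 6 lost, and in rotenone against vehicle 4 were gained and 14 lost. The gains were 2.45% of 163 strong member peaks in the knockout (95% Wilson interval 0.958 to 6.14, all strong peaks 5.33%) and 2.52% of 159 in rotenone (0.983 to 6.29, all strong peaks 6.81%). The losses were 3.57% of 168 control peaks (1.65 to 7.57, all strong peaks 6.76%) and 8.38% of 167 vehicle peaks (5.06 to 13.6, all strong peaks 8.04%). The share gained in rotenone was thus below the share over the whole list, and the other 3 intervals included theirs. With lists ranked by fold, the rotenone gains came to 6 of 152 (3.95%, 1.82 to 8.34), and that interval included the share of the whole list, 7.43%. Vehicle against control, 2 libraries of the same genotype without rotenone, gave 4 gained (2.40%, all strong peaks 1.03%) and 1 lost (0.595%, all strong peaks 0.847%). Of the 28 calls in the comparisons with the knockout and with rotenone, 1 was at a gene end, at Egln1, and 27 were distal. Gene ends held 29 of the 168 strong member peaks in control, 32 of 163 in the knockout, 27 of 167 in vehicle and 27 of 159 in rotenone. The share of gene ends among all called peaks was not computed, so nothing is read from this split. Requiring no partner peak of any strength left 1 gained peak in rotenone, 46074 bp from Pgk1 (all strong peaks 0.773%), 1 lost peak there, inside Eno1 (all strong peaks 0.943%), 1 lost in the knockout, 49798 bp from Vhl (all strong peaks 0.343%), and 0 gained in the knockout (all strong peaks 0.243%). Vehicle against control then gave 0 gained (all strong peaks 0.11%) and 0 lost (0.0867%).

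**Figure D3:**
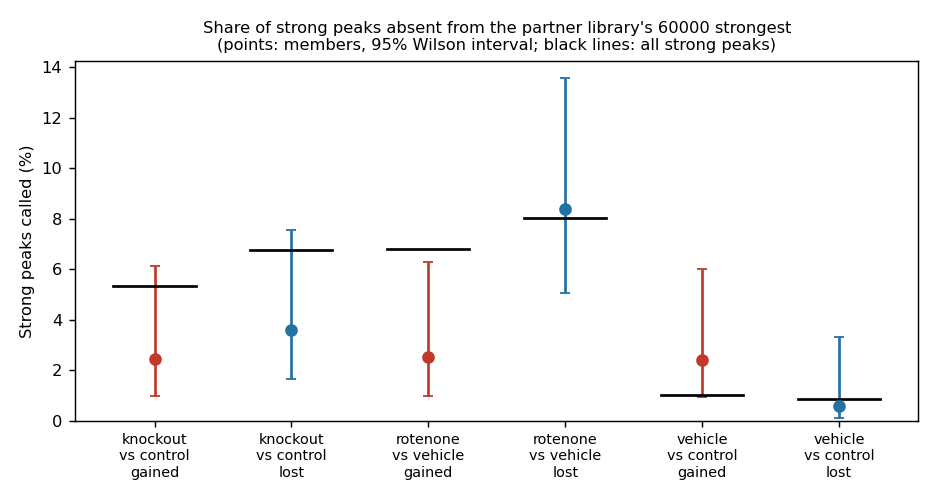
Percent of strong member peaks that overlapped none of the partner library's 60000 strongest (points, 95% Wilson intervals, red gained and blue lost), with black lines at the percent over all 30000 strong peaks. The members lie below the line for both directions in the knockout and for gains in rotenone, and close to it for losses in rotenone.

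The comparisons of knockout with control and of rotenone with vehicle share no library, and 2 distal peaks were gained in both, near Epas1 and near Pfkl, which is 2 of 4 gains (50%) in each. Over the whole lists, 21.6% of the peaks gained in the knockout and 16.9% of those gained in rotenone overlapped, and nothing is read from a share of 4 peaks. The peak at chr17:86725157-86725288 lies 28642 bp below the start coordinate of Epas1, outside any protein-coding gene, with Epas1 as the nearest one. It had folds of 2.74 in control, 4.68 in the knockout, 2.78 with vehicle and 4.86 with rotenone, at ranks 130095, 23301, 174113 and 26087. Both reference libraries held a weak peak there and both perturbed libraries a strong one. At chr10:78054693-78054927, 45003 bp upstream of Pfkl and inside Dnmt3l, the folds were 3.53, 4.62, 3.48 and 5.71, at ranks 68041, 24524, 83902 and 18202. The remaining gains were each called in 1 comparison. In the knockout they were the Egln1 promoter and a peak inside Gpr162, 45731 bp from Tpi1, where vehicle also had a fold of 5.02. In rotenone they were a peak of 62 bp inside Hk1 and 1 of 48 bp near Pgk1. The Hk1 peak had folds of 2.37, 2.27, 3.56 and 4.95, with the knockout below control. The Pgk1 peak had a fold of 4.85 in rotenone and 2.08 in the knockout, with no peak in control or vehicle.

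Of the lost peaks 1 was common to both comparisons (16.7% of those in the knockout, whole list 27.4%, and 7.14% of those in rotenone, whole list 23.0%), near Vhl but inside Irak2, at chr6:113668748-113669098. Its folds were 6.27 in control, 3.14 in the knockout, 6.22 with vehicle and 3.42 with rotenone, and its ranks in the knockout and rotenone, 62019 and 63836, were just past the partner limit of 60000. The peak of 116 bp near the edge of the Vhl window was also inside Irak2 and had folds of 5.99 in control, 4.66 with vehicle and 2.98 with rotenone, with no peak in the knockout. At Pfkp the peak lost in the knockout, 1247 bp inside the gene end (folds 5.06, 2.56, 4.24 and 2.87), and the peak lost in rotenone, 1765 bp inside it (folds 4.08, 2.53, 5.01 and 3.40), lay 173 bp apart. Both stood lower in both perturbed libraries, while the promoter peak of the same gene had a higher fold in each perturbed library than in its own reference. That promoter peak was narrower there, at 337 and 251 bp against 669 and 587 bp. Its knockout fold of 6.36 lay between those of the 2 reference libraries, 5.94 in control and 8.38 in vehicle. Inside Hif3a a peak 6271 bp from the gene end was lost in the knockout, where control had a fold of 5.39, the knockout 2.40 and vehicle 4.98, and rotenone had no peak. A peak 4194 bp upstream of Hif3a was lost in rotenone, but control resembled rotenone there (folds 2.81, 2.61, 5.77 and 2.97), and it was also called in vehicle against control. The best ranked distal peak assigned to Hif3a, 13822 bp downstream and inside Ppp5c, had higher folds in the perturbed libraries, with values of 9.99, 13.4, 10.7 and 15.0 and widths of 828, 405, 813 and 391 bp.

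Of the 14 peaks lost in rotenone, 6 were near glycolytic enzyme genes, 2 near glucose transporters, 1 in Pfkfb4, 3 near other targets, and 1 each near Hif3a and Vhl. Glycolytic enzyme genes were 14 of the 37 members, and shares per role were not computed. The members as a set lost 8.38% of their strong peaks, near the 8.04% of all strong peaks, so nothing is read from the split by role. Slc2a1 lost a peak of 462 bp, 5186 bp downstream, with folds of 4.91 in control, 2.35 in the Sod2 knockout, 5.81 with vehicle and 2.86 with rotenone. Slc2a3 lost 1 at 2276 bp beyond the gene (4.53, 3.55, 5.65 and 2.39), and Pfkfb4 lost 1 inside the gene (8.13, 3.40, 6.73 and 3.07). Both reference libraries lay above both perturbed ones at each of these 3 sites. Pfkl lost a peak 9104 bp upstream (6.92, 4.42, 7.61 and 3.43), Pfkp a further one inside Pitrm1 (6.67, 3.52, 6.00 and 2.44), Pfkm one inside Asb8 (5.08, 3.44, 6.43 and 2.91) and P4ha2 one inside the gene (4.20, 3.23, 5.76 and 2.63). Bnip3 lost 1 inside Ppp2r2d (7.31, 3.30, 6.09 and 3.38). The losses assigned to Hk1 (4.09, 2.69, 6.69 and 3.49) and to Ndrg1 (3.94, 2.08, 5.25 and 2.79) lay at the ends of Tacr2 and Ccn4. The one inside Eno1, of 84 bp, had folds of 3.28, 2.05 and 5.78, with no peak in rotenone, and was high in vehicle alone. In the knockout, Gpi1 lost 1 peak, inside Uba2 (6.75, 3.01, 7.48 and 3.83), and Pfkfb3 lost 1 inside the gene (5.36, 2.84, 4.05 and 3.18).

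The peaks lost in rotenone against vehicle could be read in the knockout and control libraries, which their choice had not used. All 14 had a peak in both, and in 14 of 14 the knockout peak stood farther from the top of its list than the control peak (all such lost peaks 90.0%) and had the lower fold (96.9% of all such peaks). Strong peaks had a lower median fold in the knockout list as a whole (5.49 against 6.78 in control). How often strong peaks that were not called had the lower fold was not tested. Of the 6 lost in the knockout, 5 had a peak in rotenone and in vehicle, and 5 of 5 stood farther from the top in rotenone (all such lost peaks 89.6%). The 4 gained in the knockout all stood nearer the top in rotenone than in vehicle (all such gained peaks 86.2%), but 3 of 4 had the higher fold there (71.4%), as the Tpi1 peak had 4.49 in rotenone and 5.02 in vehicle. Of the 3 peaks gained in rotenone with a peak in the knockout and control, 2 stood nearer the top in the knockout (82.1%). Most peaks called the same way over the whole lists did so too, as the shares in parentheses show.

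**Figure D4:**
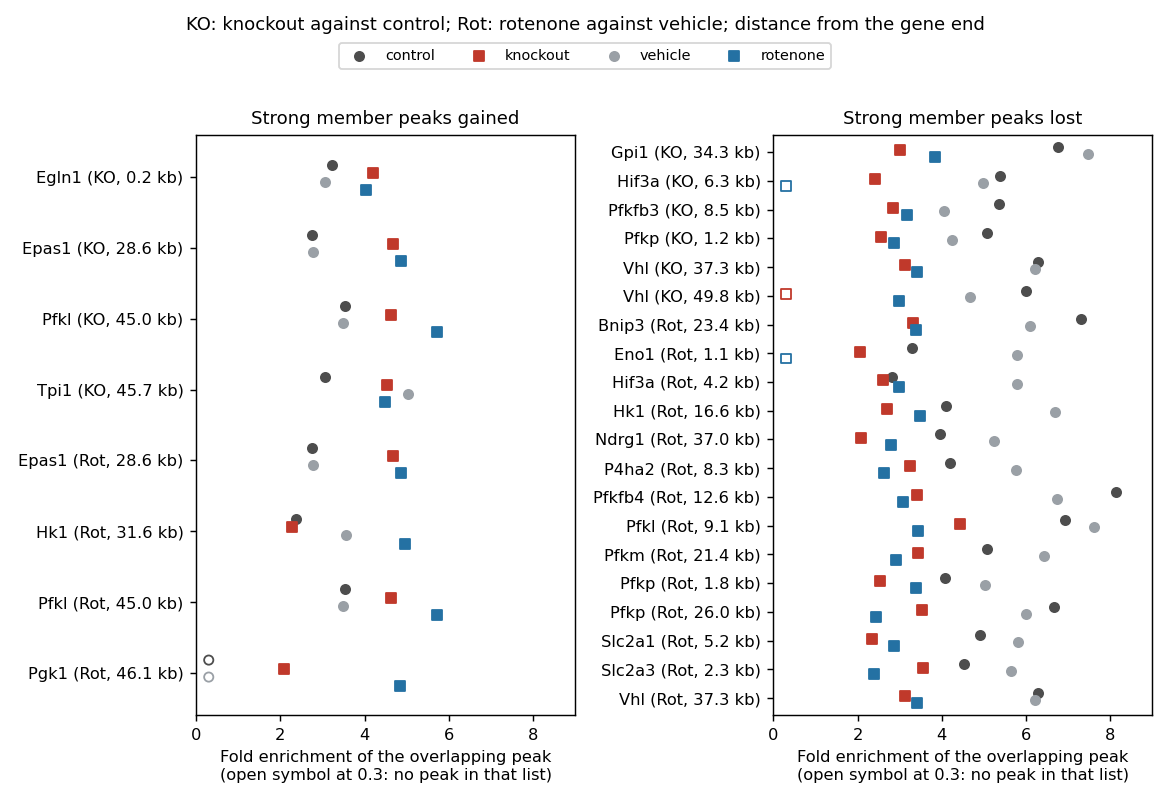
Fold enrichment of the overlapping peak in each library (x axis) at every member peak called gained (left) or lost (right) in the knockout against control or in rotenone against vehicle, labelled by gene, comparison and distance from the gene end. On the right, the knockout and rotenone points lie left of those of their own reference library at each site where both have a peak. The peaks gained at Epas1 and Pfkl separate both perturbed from both reference libraries. Peaks were called by rank in these same lists, so separation within a comparison that called the peak follows largely from the choice.

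Other genes of the pathway, 43 in the gene table, were counted in the same way. Strong gene ends were found at 28 of them in control (all genes 35.6%), 28 in the knockout (35.8%), 26 with vehicle (35.6%) and 25 with rotenone (36.5%). In the knockout 9 of their 158 strong peaks were gained (5.70%, all strong peaks 5.33%) and 5 of 151 lost (3.31%, all 6.76%). In rotenone 4 of 152 were gained (2.63%, all 6.81%) and 12 of 152 lost (7.89%, all 8.04%). A peak inside Arnt2, which encodes a relative of Arnt, was gained in both comparisons, with folds of 4.72 in the knockout and 4.81 in rotenone. Plod2, the gene of a collagen lysyl hydroxylase and hypoxia target, lost 3 peaks in rotenone and 0 in the knockout, 1 of the 3 also being called gained in vehicle against control. Of these genes, gene end peaks were lost at Bnip3l, a mitophagy receptor gene, in the knockout, and at Tigar, a fructose bisphosphatase gene, in rotenone.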

How the data were processed

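ATAC-seq peak lists of 4 libraries were analysed, 1 per group: Sod2+/+ control, conditional Sod2-/-, and Sod2+/+ with vehicle or rotenone. Per the submitters' processing notes, Bowtie2, bedtools, MACS2 and HOMER and the build mm10 were used. Versions, settings, filters on reads and a Tn5 shift are not given in the sources used.

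The authors deposited 1 list per library, called separately, with no header. As deposited by the authors, the columns, read in the order of MACS2 broad peaks, hold a score, a fold enrichment (a ratio over local background), a −log10 p and a −log10 q per peak; the score and the −log10 q were not used. Peaks were ranked within a list by the deposited −log10 p, ties by fold. Read depth is unknown.

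Starts were made 1-based. Gene spans, and promoter windows with strand, came from RefSeq (GRCm38.p6, the assembly behind mm10); all 37 members matched the gene table and 34 the promoter table. The member genes and lists were chosen with earlier results of these data known. Of 79 genes in the other lists 78 matched; Ero1l is an older name of Ero1a. The result of 1 marker list is not reported here. Values in every library are given for Hif1a, Epas1, Arnt, Egln1, Egln3, Vegfa, Slc2a1, Pfkfb3, Pgk1, Ldha, Pdk1, Pdk4 and Car9, for members with a gained or lost peak or a gene end peak strong in some libraries only, and for the 5 with the best ranked peak in control. Promoters could be shown for up to 6 members with the most matches among those with a gene end peak over the window in every library; 4 are shown. The promoter ranks and the reading of calls across comparisons were added after the data were seen. Shares have 95% Wilson intervals and medians binomial order-statistic intervals; peaks are not independent.

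On simulated data 200 of 200 planted losses were recovered in each comparison. A loss is defined as a missing overlap, so this checks the calling code alone and does not measure false calls. Tools were Python 3.11.15, pandas 2.3.3, numpy 2.4.6, matplotlib 3.10.9 and scipy 1.17.1. Alternatives were other list lengths, ranking by fold, any-strength partners, 50% coverage, windows of 2500 and 20000 bp, and autosomes only.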

Additional observations from a re-analysis of the deposited data

How the results depend on the processing

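No paired analysis was possible because each group has 1 library. Of 124 alternative values for the main results, 68 stayed within 1.5 times the count, or within the 95% interval, and 56 moved. Of the width and rank medians, 20 moved and 28 did not. Ranking by fold, autosomes only and the promoter windows in place of gene ends, an alternative chosen after seeing the data, moved none of these main results beyond those bounds, except that ranking by fold gave 2 losses in vehicle against control. With 15000 strong peaks, strong gene ends were found at 10 members in control, 14 in the knockout and 11 in vehicle, and at 17 in rotenone, which was then the highest of the 4 and not the lowest.

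For gained peaks, lists of 15000 against 30000 gave 2 in the knockout, 1 in rotenone and 0 in vehicle against control; lists of 60000 against 120000 gave 20, 27 and 9, and partners of any strength 0, 1 and 0. Within 20000 bp, 1 gain was left in the knockout (0.909% of member peaks against 5.33% of all) and 1 in rotenone (0.98% against 6.81%). For lost peaks the shorter lists gave 3, 2 and 0, the longer ones 39, 51 and 6, and partners of any strength 1, 1 and 0. Within 20000 bp there were 3 losses in the knockout (2.75% against 6.76%) and 9 in rotenone (8.18% against 8.04%). With 50% of the peak to be covered, losses came to 20 (11.9% against 13.2%), 22 (13.2% against 14.7%) and 4 (2.38% against 1.94%). With the longer lists the gains were 7.25% of member peaks against 12.1% of all in the knockout and 9.75% against 15.6% in rotenone, below the share of the whole list, and in vehicle against control 2.98% against 4.08%. The losses there were 13.6% of member peaks against 14.0% of all in the knockout and 16.9% against 16.5% in rotenone, near the share of the whole list, and 2.09% against 3.45% in vehicle against control. With the shorter lists the gains were 2.25% against 4.9% in the knockout and 1.19% against 5.52% in rotenone, and the losses 3.7% against 5.58% and 2.38% against 6.09%. Ranked by fold, the rotenone gains were 3.95% against 7.43%, within the interval of the members.

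With strong peaks only, the median fold at gene ends and distal sites was 6.13 and 6.75 in control, 5.44 and 5.85 in the knockout, 6.66 and 7.07 in vehicle, and 5.60 and 6.00 in rotenone, which turned the order of the 2 classes. A gene end window of 2500 bp gave 2.37 at gene ends in the knockout, and peaks within 20000 bp gave 2.88 at distal sites in rotenone. The share of strong peaks at gene ends and distal sites with 15000 strongest was 11.5% and 6.08% in control, 14.0% and 5.07% in the knockout, 16.0% and 7.42% in vehicle, and 20.7% and 7.28% in rotenone. With 60000 it was 21.7%, 16.2%, 27.3% and 25.8% at distal sites, in the same order, and 49.3% and 48.8% at gene ends in vehicle and rotenone. A gene end window of 2500 bp gave 19.9% in control, 19.8% in the knockout and 23.3% in rotenone. Gene ends kept the higher share in each of these. The 50000 bp limit also decides membership: in control the last strong peak inside it lay 49966 bp from Bnip3 (fold 6.63) and the first outside it 50323 bp from Pfkfb4 (fold 10.5). The last strong peak counted as gene end lay 862 bp from an end of Pgk1 (fold 5.77), and the first counted as distal 1247 bp inside Pfkp (fold 5.06).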
